A study of Rattus norvegicus with 6 samples.

Results

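Rat genes that carry only a provisional symbol were examined in testicular tissue of 3 diabetic and 3 non-diabetic Sprague-Dawley rats. A provisional symbol is LOC or RGD followed by a number, given to a gene model that has no approved name. Every row of the deposited gene table whose symbol had this form was taken, which gave 2434 of 35291 rows, 1844 with LOC and 590 with RGD symbols. They carried 2361 distinct symbols, because 61 symbols stood on more than 1 row.

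The diabetic rats had received a high-fat diet and then a single intraperitoneal injection of streptozotocin (STZ), a toxin of the insulin-producing beta cells. The non-diabetic rats had received citrate buffer, and the diet of this group is not stated in the study's methods. Testes were taken 8 weeks later, and RNA sequencing gave 1 value per gene and rat in FPKM, fragments per kilobase of transcript corrected for library size. The labels do not say whether tissue of several animals was pooled, and p-values measure only the spread between these 6 samples. The FPKM totals lay between 453304 and 478211 per rat, the number of reads behind a value is unknown, and no library stood apart: correlations of the log2 values were 0.958 to 0.965 within and 0.957 to 0.966 between the groups. Markers of germ cells, Sertoli cells and Leydig cells were expressed in all 6 rats. In whole testis, fewer cells of a type cannot be told apart from less RNA per cell.

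The testis transcribes an unusually wide set of genes, and many of them are young, duplicated or lineage-specific. Provisional symbols gather in such places: recent copies of named genes, processed pseudogenes of abundant messages, long non-coding RNAs (lncRNAs) and open reading frames known from cDNA collections. Where copies are nearly identical, a sequencing read can belong to several of them, and how the authors counted such reads is not given in the sources used here. Levels of genes with near-identical copies are therefore uncertain.

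Names were looked up in a RefSeq table of the rat assembly GRCr8, which matched 1294 of the 2434 rows. Of these, 227 still bore the same symbol and 1067 had another one, so that, for example, LOC501467 is now Dlg5l14 and LOC683422 is Prss52. RefSeq calls 1045 of the matched rows protein coding, 104 lncRNA, 111 pseudogene and 16 transcribed pseudogene. The genome build behind the deposited values is not given in the sources used here.

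Promoter windows in RefSeq, from 250 bases before to 50 bases after an annotated start, were found for 976 of the 2434 rows. 3 are printed because the results below turn on these genes. LOC685226 and LOC102547811 are members of the Speer and disks large 5-like family described below, and LOC102552398 is the lncRNA with the smallest p-value. In the first pair the capitals mark the longest run of bases that both windows share, 34 bases. The windows are on GRCr8 at chr19:39386406-39386705 (+ strand), chr19:26168603-26168902 (- strand) and chr8:71175907-71176206 (- strand).
LOC685226, now Speer4cl7: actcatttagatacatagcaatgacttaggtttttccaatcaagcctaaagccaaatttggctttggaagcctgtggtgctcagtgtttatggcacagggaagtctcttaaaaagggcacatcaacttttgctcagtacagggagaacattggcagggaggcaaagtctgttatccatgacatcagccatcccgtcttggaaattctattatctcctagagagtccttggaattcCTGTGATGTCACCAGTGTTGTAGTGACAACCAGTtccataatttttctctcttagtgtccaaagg
LOC102547811, now Dlg5l4: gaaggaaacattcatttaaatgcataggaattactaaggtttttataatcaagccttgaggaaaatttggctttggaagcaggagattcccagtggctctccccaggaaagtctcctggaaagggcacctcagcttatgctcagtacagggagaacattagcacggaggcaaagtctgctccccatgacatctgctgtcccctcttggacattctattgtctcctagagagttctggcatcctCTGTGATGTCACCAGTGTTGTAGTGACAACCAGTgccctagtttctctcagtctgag
LOC102552398: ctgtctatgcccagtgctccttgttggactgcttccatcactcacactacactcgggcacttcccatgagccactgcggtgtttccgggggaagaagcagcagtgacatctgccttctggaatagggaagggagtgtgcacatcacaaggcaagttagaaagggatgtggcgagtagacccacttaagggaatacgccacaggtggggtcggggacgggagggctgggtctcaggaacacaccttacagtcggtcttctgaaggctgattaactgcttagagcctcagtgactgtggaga

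In a global alignment the first pair of windows shared 242 identical bases, with 48 mismatches and 20 gapped positions, so that 78.1% of the aligned columns were identical. The window of Dlg5l14, which follows the same expression pattern, shared 181 bases with that of Speer4cl7 and 179 with that of Dlg5l4. The window of LOC102552398, a gene of no known relation, also shared 179 bases with that of Dlg5l4. The capital run holds the letters TGATGTCA, which on either strand occur in the windows of 1260 of 27457 genes (4.59%). They were not found in the windows of Dlg5l14, Speer4cl5 or LOC102552398.

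Descriptions in the table put the 2434 rows in 5 classes. The largest class, 1663 rows, was described as similar to a named gene, and 519 rows were uncharacterised. A further 206 rows bore the name of another product, 33 a family, homolog or numbered product, and 13 were described as pseudogenes. RefSeq and the table differed on the last class: of the 127 rows that RefSeq now calls pseudogene or transcribed pseudogene, the table described 2 as such.

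Slightly over 1 row in 2 had a level that allowed a comparison of the groups. Averaged over the 6 rats, 0.5 FPKM or more was reached by 1328 rows (54.6%), against 57.6% of all rows, and only these were tested. Another 376 rows were listed at 0 in all 6 rats, and 730 lay above 0 but below 0.5 FPKM. The uncharacterised class was measured more often than the similar class, with 70.7% against 49.4% of rows tested. Its median over all rows was 2.43 FPKM, against 0.471 FPKM for the similar class. Means of at least 10 FPKM were reached by 541 of the 2434 rows and means of at least 100 FPKM by 69. In sum the 2434 rows took between 7.01% and 7.16% of the FPKM total of a rat.

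The most abundant provisional genes had similar levels in both groups. LOC100271845, now C1h16orf82, an open reading frame of unknown function, had 739.8, 738 and 727 FPKM in diabetic and 699.7, 730.2 and 682 FPKM in non-diabetic rats. LOC103692716, described as heat shock protein HSP 90-alpha, a chaperone, followed with 512 ± 21.7 FPKM in diabetic and 528 ± 19.1 FPKM in non-diabetic rats (mean ± SD, n = 3 each). The named gene Hsp90aa1 had 512, 504 and 571 FPKM in diabetic and 512, 528 and 562 FPKM in non-diabetic rats. LOC300308 (Smokl3), named after the sperm motility kinases and called a transcribed pseudogene by RefSeq, had 512 ± 74.5 and 474 ± 93.3 FPKM on its higher row. These 3 provisional genes overlapped between the groups.

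LOC365778 (Fundc2b), LOC102554842 (Cmtm2b), LOC689042 (1700012A03Rikl) and LOC685203 (C9h2orf88) had means over 6 rats of 484, 437, 429 and 418 FPKM. RGD1564319 (Pdcd5l1), LOC500124 (Spmip4) and LOC100910138, similar to the serine protease inhibitor Spink2, had means of 369, 362 and 351 FPKM. LOC685203 was the only one of these 10 genes whose groups did not overlap, with 413, 394 and 414 against 415, 431 and 441 FPKM. None of the 10 passed the criterion of change described next. Their log2 fold changes lay between -0.08 and 0.13.

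The main comparison asked which provisional genes differ between diabetic and non-diabetic testis. The values were compared on the scale log2(FPKM + 0.1) with limma over all 20338 genes tested, which understates the change of low genes. A gene passed the criterion when its log2 fold change was at least 1 in either direction with an unadjusted p-value below 0.05, the thresholds of the study's own screen. Of the 1328 provisional genes, 7 passed as higher in diabetic rats (0.527%), against 0.398% of all genes tested. As lower in diabetic rats 10 passed (0.753%), against 0.846% of all. These shares are near the background, so the provisional genes as a whole did not stand apart. The median log2 fold change was -0.02 both over the 1328 provisional genes and over all 20338 genes tested, and 91.9% of the provisional genes had an absolute log2 fold change under 0.5, against 90.1% of all. Scaling by median ratios moved both medians to 0.01.

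Unadjusted p-values below 0.05 were found for 89 provisional genes (background 7.46% of all genes), 41 higher and 48 lower in diabetic rats. Groups without overlap were seen in 143 of the 1328 provisional genes, 56 higher and 87 lower, against a background of 13.0%. A spread over the 6 rats above 1 (SD on the log2 scale) was seen in 49 provisional genes (3.69%), against 3.15% of all. With Benjamini-Hochberg adjustment across the whole table, 1 provisional gene had an adjusted p below 0.05 in limma (background 0.0344%, 7 genes). Single rats moved these counts. Without diabetic rat 2, 4 passed as higher and 6 as lower, and without diabetic rat 3, 2 passed as higher. Without non-diabetic rat 1, 12 passed as higher and 5 as lower, and 3 had an adjusted p below 0.05. Without diabetic rat 3 the adjusted count was 2, and without non-diabetic rat 3 it was 0, with 78 provisional genes at an unadjusted p below 0.05.

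**Figure D1:**
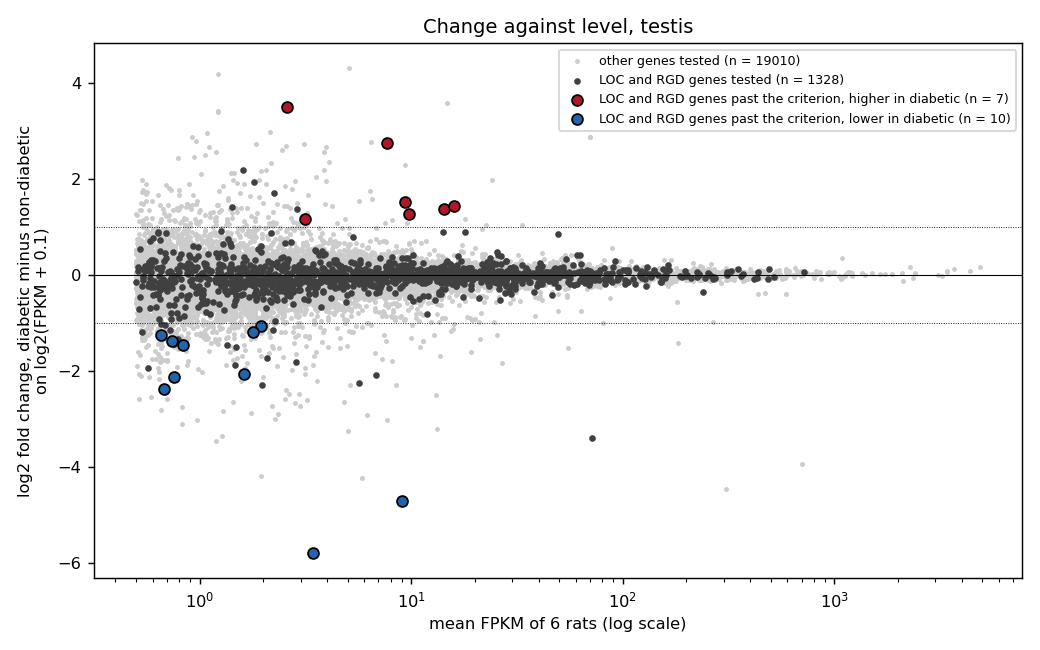
Log2 fold change on log2(FPKM + 0.1), diabetic minus non-diabetic, against the mean FPKM of 6 rats (log axis), for 1328 provisional genes (dark) and 19010 other genes (grey). The 7 provisional genes past the criterion and higher in diabetic rats are red, the 10 lower ones blue, and most of the dark points lie close to 0 at all levels.

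1 provisional gene was on in one group and off in the other, and it was also the one with an adjusted p below 0.05. A locus was called on when all 3 rats of a group had at least 0.5 FPKM and off when all 3 rats of the other group had less than 0.1 FPKM. LOC102552398 (ENSRNOG00000057304), uncharacterised in the table and a lncRNA in RefSeq, was listed at 0, 0 and 0.0656 FPKM in diabetic rats. In non-diabetic rats it had 4.11, 8.33 and 8.08 FPKM, so every non-diabetic rat was far above every diabetic rat. Of all 35291 rows, LOC102552398 was the only one on in one group and off in the other (background 0.00283%).

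The log2 fold change of LOC102552398 was -5.81 ± 0.38 (SE), with an adjusted p of 0.00605 in limma and 0.1 in the exact two-sided permutation test, the smallest p that 3 against 3 rats allow. Because 2 of the diabetic values are exact zeros, its size depends on the constant added before the logarithm: -2.89 with 1 FPKM and -8.38 with 0.01 FPKM. The adjusted p was 0.0651 with 0.01 FPKM and 0.105 without non-diabetic rat 3, and lay between 0.0062 and 0.0464 in the other alternatives. In RefSeq the gene lies between another lncRNA, LOC102551666, and Rplp1, a protein of the large ribosomal subunit. Rplp1 itself had 220.3, 225 and 242 FPKM in diabetic and 216, 242 and 229 FPKM in non-diabetic rats, and its groups overlapped.

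Of the 7 provisional rows past the criterion as higher in diabetic rats, 6 were relatives of 1 family, among them both rows of LOC501467. Rows of this family may share reads, which was not tested, so they need not be separate results. Speer proteins, spermatogenesis associated glutamate (E)-rich proteins, are rodent-specific testis proteins that arose from a partial copy of Dlg5, a scaffold protein of cell junctions. 11 rows of the table belonged to this family by description or RefSeq name, and 10 of them were tested. Those with a RefSeq match, the rows of LOC501297, LOC501467, LOC102547811, LOC108348293 and LOC685226, lie on chromosome 19. The other rows of the family had no match, and their position is not known here.

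LOC102547811 (Dlg5l4) had 8.75, 14.0 and 14.2 FPKM in diabetic and 7.71, 0.740 and 0.785 FPKM in non-diabetic rats. The log2 fold change was 2.75 ± 0.81 (SE), with an adjusted p of 0.517 in limma. Non-diabetic rats 2 and 3 were low, while non-diabetic rat 1 was close to diabetic rat 1, and the groups did not overlap.

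LOC501467 (Dlg5l14) stood on 2 rows. The higher row had 9.22, 17.7 and 14.1 FPKM in diabetic and 8.25, 3.05 and 3.73 FPKM in non-diabetic rats, with a log2 fold change of 1.52 ± 0.39 (SE) and an adjusted p of 0.436 in limma. The lower row had 3.48, 4.21 and 4.91 against 3.85, 1.16 and 1.27 FPKM, and here non-diabetic rat 1 fell inside the diabetic range.

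Low values in non-diabetic rats 2 and 3 were also seen in the other relatives past the criterion. LOC501297 (Dlg5l13) had 15.5, 27.3 and 24.1 FPKM in diabetic and 18.0, 4.42 and 6.21 FPKM in non-diabetic rats. LOC100909409, described as disks large homolog 5-like, had 14.8, 22.7 and 22.0 against 17.0, 4.59 and 5.14 FPKM. LOC685226 (Speer4cl7) had 9.87, 15.6 and 14.2 against 11.5, 3.52 and 3.62 FPKM. In these 3 genes non-diabetic rat 1 lay above diabetic rat 1, so the groups overlapped, and the log2 fold changes of 1.44, 1.39 and 1.28 had adjusted p-values of 0.588, 0.589 and 0.602 in limma. LOC108348293 (Speer4cl5) had 5.38, 6.81 and 7.77 against 5.75, 2.77 and 3.23 FPKM, and its log2 fold change of 0.81 did not reach the criterion.

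Other relatives did not have this pattern. LOC102550797 had 13.4 FPKM in diabetic rat 2 and 9.57 FPKM in non-diabetic rat 2, but between 1.47 and 1.64 FPKM in the other 4 rats. LOC102546376 had 10.1, 9.09 and 12.1 FPKM in diabetic and 5.95, 10.5 and 11.5 FPKM in non-diabetic rats, where non-diabetic rat 1 was the lowest of the 6. LOC102546495 lay between 0.686 and 1.33 FPKM, and Dlg5 itself between 2.34 and 3.27 FPKM with overlapping groups. Summed over the 11 rows, the family had 79.3, 132 and 116 FPKM in diabetic and 80.5, 41.1 and 38.5 FPKM in non-diabetic rats, which overlap through rat 1 of each group. The summed spermatid markers Prm1, Prm2, Tnp1, Tnp2 and Acrv1 lay between 7869 and 9377 FPKM in diabetic and between 7370 and 10051 FPKM in non-diabetic rats.

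Without non-diabetic rat 1 the log2 fold change of LOC102547811 was 3.81, with an adjusted p of 0.0107 in limma. Without any other single rat it was 2.20 to 2.98, with adjusted p-values of 0.607 to 0.859 in limma. For LOC501297, LOC100909409, LOC685226 and the lower row of LOC501467 the unadjusted p was below 0.05 without non-diabetic rat 1 or diabetic rat 1 and above 0.05 without any of the other 4 rats. The seventh row past the criterion as higher, LOC103689945, is taken up with the genes listed at 0.

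**Figure D2:**
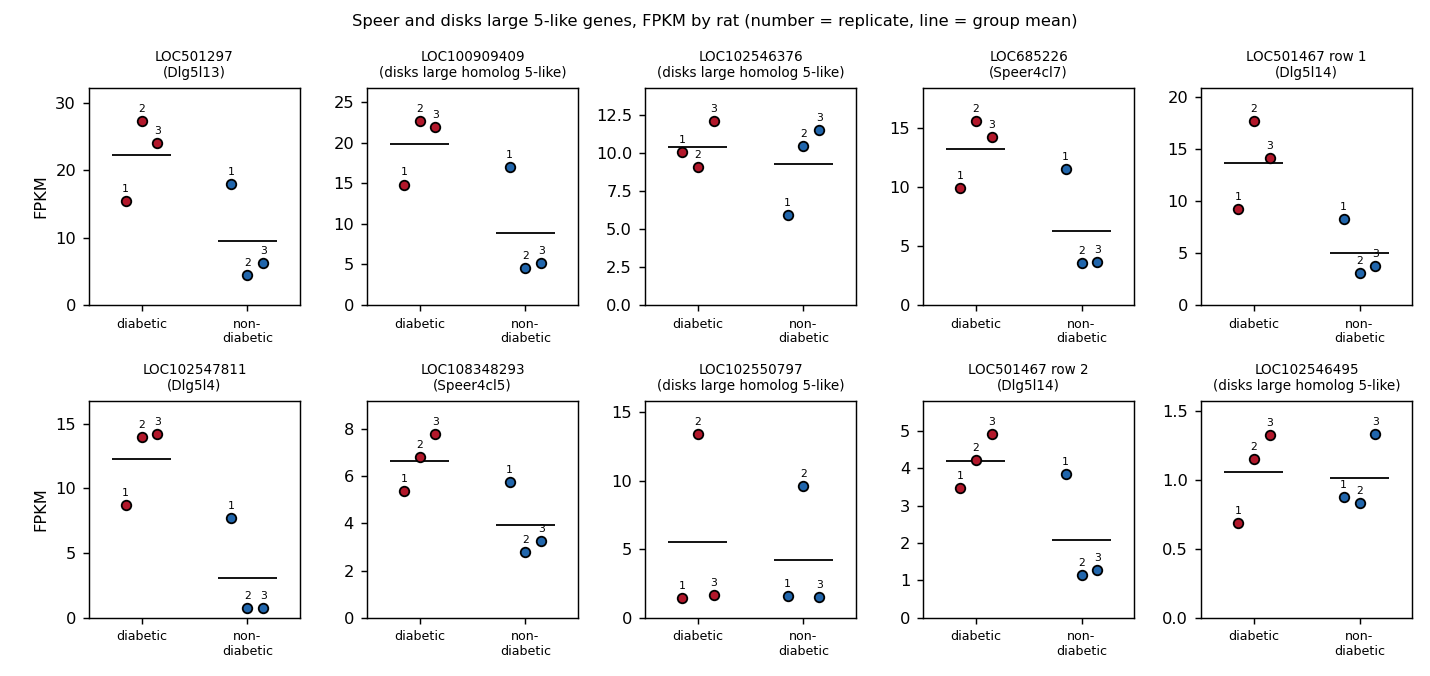
FPKM (linear axis from 0) of the 10 tested rows of the Speer and disks large 5-like family, 1 panel a row, with 3 diabetic rats in red and 3 non-diabetic rats in blue. Numbers give the replicate and lines the group means where no rat is at 0. In 7 panels non-diabetic rats 2 and 3 are the lowest points, and non-diabetic rat 1 lies near the diabetic rats.

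Among genes of at least 10 FPKM with an absolute log2 fold change of 0.5 or more, the 5 with the lowest p-values were LOC501297 and LOC100909409, described above, and 3 more genes, all higher in diabetic rats. RGD1359290, which RefSeq calls a pseudogene of the ribosomal protein gene Rpl17, had 56.4, 62.9 and 70.3 FPKM in diabetic and 34.6, 25.8 and 46.8 FPKM in non-diabetic rats. The log2 fold change was 0.86 ± 0.20 (SE), with an adjusted p of 0.41 in limma. RGD1562660, an uncharacterised gene, had 17.2, 25.1 and 27.7 against 16.4, 11.2 and 9.77 FPKM, a log2 fold change of 0.91. LOC363337, described by its likeness to a mouse cDNA of unknown function, had 11.9, 20.3 and 23.3 against 13.2, 7.78 and 8.19 FPKM. The first 2 of these genes had groups without overlap, and in LOC363337 non-diabetic rat 1 lay above diabetic rat 1.

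Most of the 10 provisional genes past the criterion and lower in diabetic rats were scarce: 8 had means under 5 FPKM in both groups. Beside LOC102552398, 5 of them had groups that did not overlap. LOC108348048 was described as von Willebrand factor A domain-containing protein 5A, a protein named for its adhesion-type domain. It had 1.10, 1.28 and 1.32 FPKM in diabetic and 2.81, 2.74 and 2.49 FPKM in non-diabetic rats. The log2 fold change was -1.06 ± 0.15 (SE), with an adjusted p of 0.146 in limma, and its SE was the smallest of the 10. The named gene Vwa5a was listed at 0 in 5 rats and at 1.96 FPKM in non-diabetic rat 3.

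RGD1565355 (Cd36l1) is similar to Cd36, a receptor for fatty acids and lipoproteins. It had 0.610, 0.208 and 0.342 FPKM in diabetic and 1.10, 1.04 and 1.16 FPKM in non-diabetic rats, a log2 fold change of -1.38 ± 0.36 (SE) with an adjusted p of 0.439 in limma. Cd36 itself had 2.24, 1.63 and 3.0 FPKM in diabetic and 4.37, 4.81 and 4.74 FPKM in non-diabetic rats. Both genes were thus lower in every diabetic rat than in every non-diabetic rat. Whether the rows of RGD1565355 and Cd36 share reads was not tested, so they need not be separate results.

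LOC103694892, described as seminal vesicle secretory protein 5, a product of an accessory gland, had 0.187, 0.665 and 0.772 FPKM in diabetic and 0.989, 4.01 and 3.06 FPKM in non-diabetic rats. The 4 epididymal markers Lcn5, Lcn8, Crisp1 and Adam28 summed to at most 0.171 FPKM in any rat, and Lcn8 was at 0 in all 6. No marker of the seminal vesicle was among the markers looked up here. LOC100911047, similar to the X-linked lymphocyte-regulated protein 3A, had 0.836, 0.166 and 0 against 1.31, 1.09 and 1.14 FPKM. LOC686066 (Rpl38l5), a copy of a ribosomal protein gene, had 0.435, 0.318 and 0.218 against 0.818, 0.498 and 1.67 FPKM. In these 3 genes, too, every diabetic rat was below every non-diabetic rat, with adjusted p-values of 0.51, 0.613 and 0.629 in limma.

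In the remaining 4 the groups overlapped. LOC108348752, a lncRNA, had 0.715, 0.590 and 2.13 against 2.93, 2.66 and 1.69 FPKM. LOC102554154, uncharacterised, had 0.872, 0.279 and 0.169 against 1.76, 1.12 and 0.811 FPKM. LOC108352225, uncharacterised, was listed at 0 in diabetic rats 2 and 3 and had 0.848 FPKM in diabetic rat 1, above 2 of the 3 non-diabetic values of 0.678, 1.71 and 0.838 FPKM. The last, LOC103689931, was described as heterogeneous nuclear ribonucleoprotein A/B, an RNA-binding protein.

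**Figure D3:**
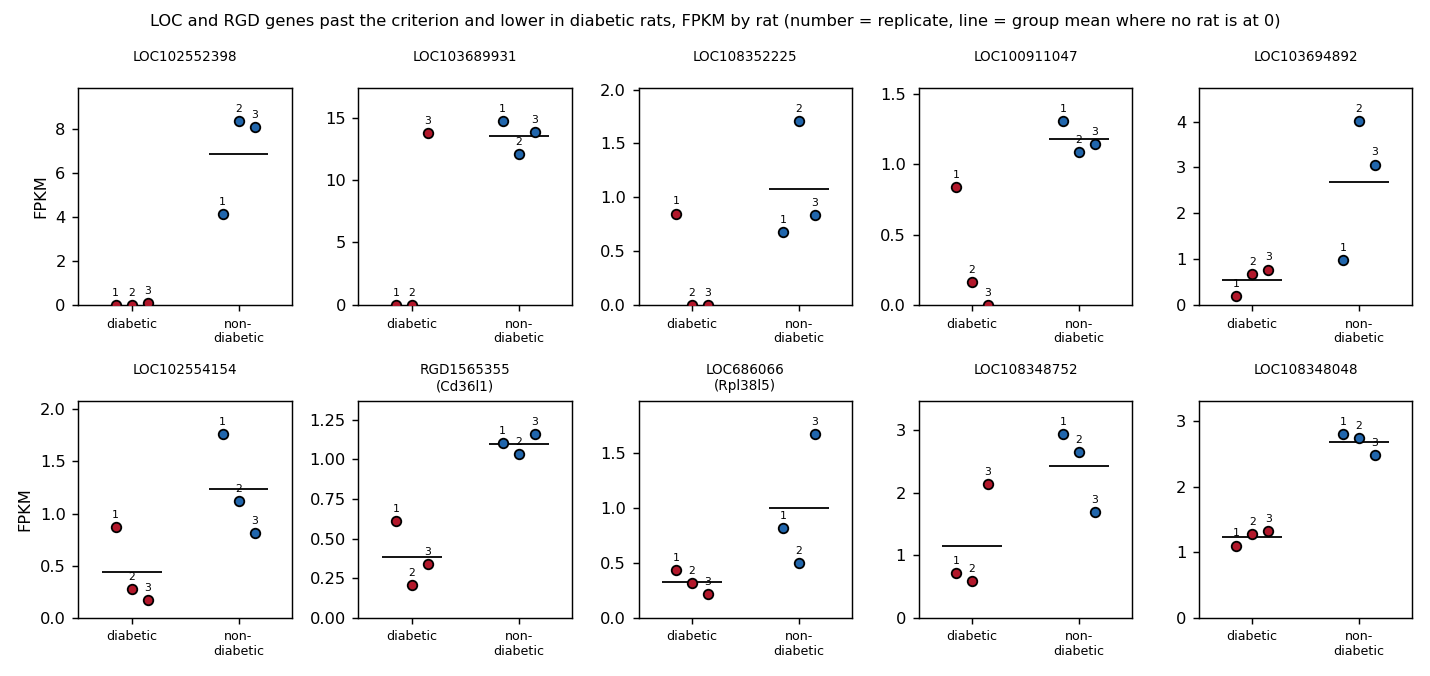
FPKM (linear axis from 0) of the 10 provisional genes past the criterion and lower in diabetic rats, 1 panel a gene, with 3 diabetic rats in red and 3 non-diabetic rats in blue. Numbers give the replicate and lines the group means where no rat is at 0. LOC102552398 is at or near 0 in the 3 diabetic rats, and LOC103689931 is at 0 in 2 of them and at 13.7 FPKM in the third.

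Some rows were listed at exactly 0 in single rats, among the provisional genes and elsewhere in the table. 40 provisional rows were listed at 0 in at least 1 rat and at 1 FPKM or more in another (1.64%), against 352 of all 35291 rows (0.997%). Of the 40, 27 were described as similar to a named gene, and 8 had a RefSeq match. Zeros occurred in both groups: 19 rows had them in both, 14 in diabetic rats alone and 7 in non-diabetic rats alone. The diabetic rats held 18, 18 and 19 of these rows at 0, and the non-diabetic rats 9, 13 and 17. The same counts by rat were not taken over all 352 rows, so these counts have no background to be read against. Genes that every cell uses were also listed at 0 in single rats, Srm in non-diabetic rat 2 and Hnrnpab in diabetic rats 1 and 2. A 0 therefore means only that the gene is listed at 0, and what produced the zeros was not tested.

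The largest swing was in LOC100909595, similar to the glucose transporter gene Slc2a3. It was listed at 0 in diabetic rats 1 and 3 and in non-diabetic rat 3, and had 159 FPKM in diabetic rat 2 and 133 and 137 FPKM in non-diabetic rats 1 and 2. Slc2a3 itself had between 147 and 176 FPKM in all 6 rats. LOC103689938, similar to the adhesion molecule Ceacam1, had 69.4 and 65.7 FPKM in diabetic rats 1 and 2 and 66.5 and 61.0 FPKM in non-diabetic rats 1 and 3, and was listed at 0 in the remaining rat of each group. Ceacam6, its relative in the table, lay between 74.4 and 83.7 FPKM in all 6 rats.

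LOC103689945, similar to the zinc finger SWIM gene Zswim8, passed the criterion as higher in diabetic rats with zeros in 2 non-diabetic rats. It had 3.86, 4.17 and 3.47 FPKM in diabetic rats and 4.02 FPKM in non-diabetic rat 1, and was listed at 0 in non-diabetic rats 2 and 3. Zswim8 itself lay between 3.49 and 4.25 FPKM in all 6 rats. LOC103689931, described above among the lower genes, was listed at 0 in diabetic rats 1 and 2 and had 13.7 FPKM in diabetic rat 3, within the non-diabetic range of 12.1 to 14.7 FPKM. Hnrnpab was listed at 0 in the same 2 rats and had between 7.65 and 9.58 FPKM in the others.

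For 13 pairs of such a gene and a named relative, chosen after their values were seen, the relative was at 0 in the same rats in 4 pairs and in no rat in 8. The 4 were LOC103689931 with Hnrnpab, LOC100912604 with Srm, LOC103690164 with Phykpl, and LOC108348081 with Cd99l2. LOC108348081 had 1.74 FPKM in diabetic rat 3 and 2.57 FPKM in non-diabetic rat 1, where Cd99l2 had 1.70 and 2.55 FPKM, and both were at 0 in the other 4 rats. LOC108348298, similar to the ribosomal L1 domain gene Rsl1d1, was seen in 1 rat alone, diabetic rat 1, with 9.65 FPKM. Of the 17 provisional genes past the criterion, 5 had a 0 in at least 1 rat. Without such genes 6 passed as higher and 6 as lower.

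**Figure D4:**
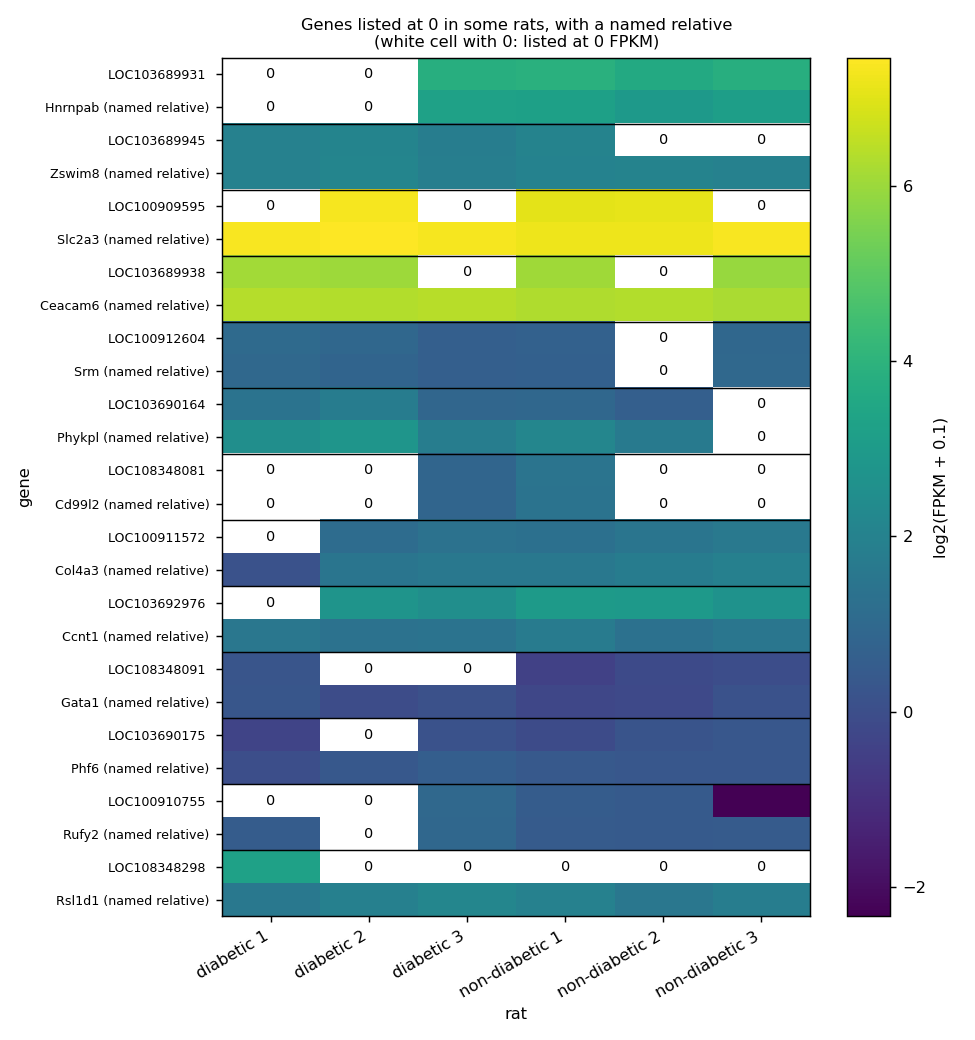
Levels as log2(FPKM + 0.1) by rat (colour scale) for 13 provisional genes listed at 0 in some rats, each above a named relative. White cells with a 0 are values listed at 0 FPKM. In 4 pairs the zeros stand in the same rats for both genes, and in 8 pairs the relative is above 0 in all 6 rats.

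Provisional genes with an immune description had lower means in diabetic rats in 7 of the 8 rows tested, and none passed the criterion. Their median log2 fold change was -0.56, against -0.02 over all genes tested, and 3 of the 8 had an unadjusted p below 0.05, against 7.46% of all genes. Over all 20338 genes tested, 11313 had a log2 fold change below 0. The 3 were both rows of LOC100910979 and LOC100364500. LOC100910979 is similar to an interferon-inducible GTPase, a class of proteins of cell-autonomous defence. Its higher row had 0.869, 0.563 and 0.932 FPKM in diabetic and 1.31, 1.4 and 1.61 FPKM in non-diabetic rats, a log2 fold change of -0.81 ± 0.25 (SE) with an adjusted p of 0.531 in limma. LOC100364500, similar to a class I histocompatibility gene of the rat RT1 complex, had 1.48, 1.60 and 1.39 against 2.13, 2.69 and 1.76 FPKM, with an adjusted p of 0.635 in limma.

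2 further GTPase relatives had groups that did not overlap, with p-values above 0.05 in limma. Of all genes tested, 13.0% had groups without overlap. LOC100910934 had 0.812, 0.441 and 1.0 against 1.19, 1.20 and 1.21 FPKM, and RGD1309362 had 0.892, 0.494 and 1.02 against 1.30, 1.30 and 1.07 FPKM. These 4 GTPase rows have like descriptions and may share reads, which was not tested. Markers of macrophages and Leydig cells also differed between the groups. The macrophage markers Cd68, Cd163 and Csf1r summed to between 2.98 and 4.40 FPKM in diabetic and between 5.21 and 6.18 FPKM in non-diabetic rats, and Cd68 and Csf1r did not overlap between the groups, while Cd163 did. The 6 markers of Leydig cells, the testosterone-producing cells between the tubules, summed to between 27.3 and 57.3 against between 84.5 and 117 FPKM, and 5 of the 6 did not overlap. The endothelial markers Cdh5 and Vwf summed to between 1.98 and 2.54 against between 1.99 and 2.71 FPKM and overlapped. The part of these cells in the values of the immune genes and of RGD1565355 was not tested.

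**Figure D5:**
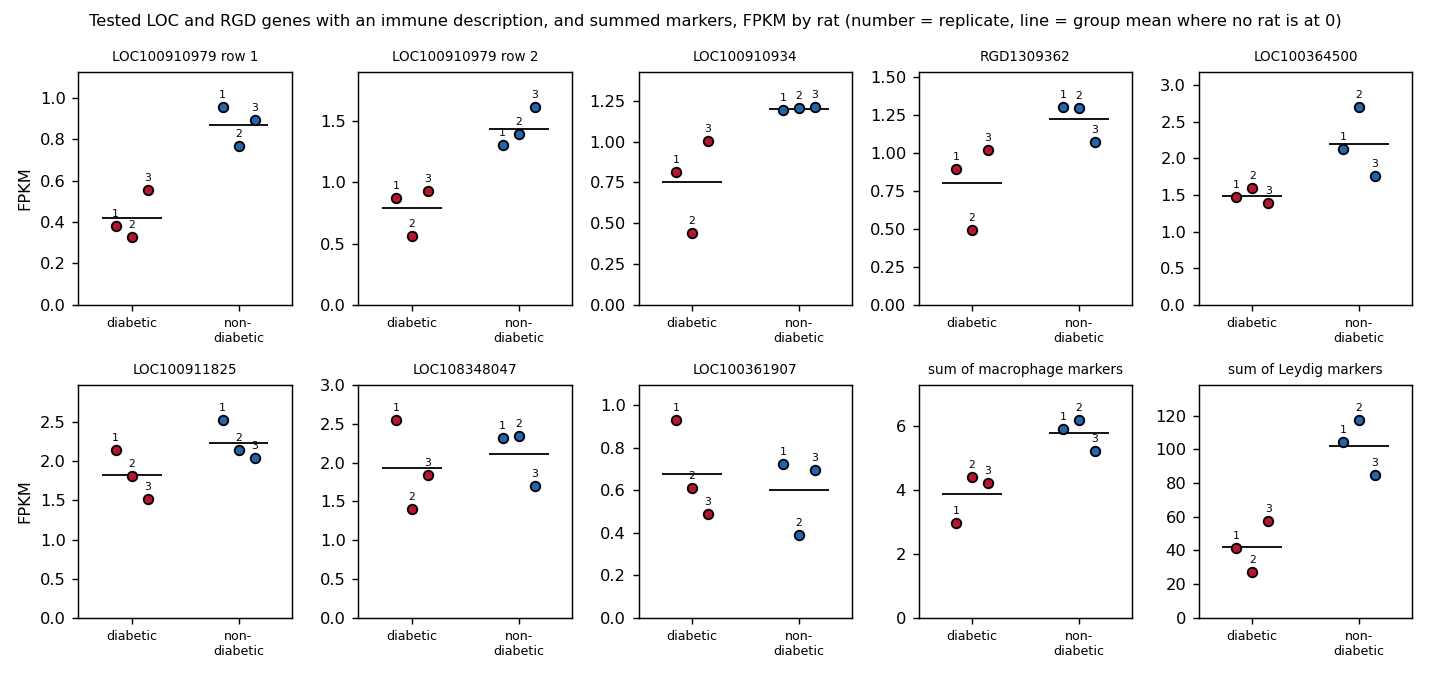
FPKM (linear axis from 0) of the 8 tested provisional rows with an immune description, and the summed FPKM of 3 macrophage and 6 Leydig cell markers in the last 2 panels, with 3 diabetic rats in red and 3 non-diabetic rats in blue. Numbers give the replicate and lines the group means. In 5 gene panels and in both marker panels every diabetic rat lies below every non-diabetic rat, as in 1713 of all 20338 genes tested.

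Rows whose description holds the words ribosomal protein formed the largest expressed family, with 191 rows of which 89 were tested. 32 of the 89 had a log2 fold change above 0 and 57 below, and the median was -0.08, or -0.05 with 38 above 0 after scaling each rat by its median ratio. 1 of the 89, LOC686066, had an unadjusted p below 0.05 (background 7.46% of all genes). RGD1359290, the Rpl17 pseudogene that was higher in diabetic rats, is described by another word and is not among the 89. The most abundant copy, LOC100362027 (Rpl30l2), had 198, 188 and 244 FPKM in diabetic and 258, 328 and 226 FPKM in non-diabetic rats, and the groups overlapped. Olfactory, vomeronasal and taste receptor genes were the largest family of all, with 226 rows, but 108 were at 0 in all 6 rats and 8 were tested. LOC100910382, with the lowest p-value of the 8, had 0.596, 0.264 and 0.443 against 0.658, 0.782 and 0.754 FPKM and did not pass the test.

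The word histone stood in 23 descriptions, of which 21 rows were tested. 4 of these name no histone: LOC100911295 and LOC100359574, described as non-histone chromosomal proteins, and the enzymes LOC108348065 and LOC100910833. Of the 21, 4 histone rows had an unadjusted p below 0.05, 3 of them lower, against a background of 7.46% of all genes in either direction. RGD1562378, a variant of histone H4, stood on 5 tested rows. 1 of them had 10.8, 11.8 and 12.5 FPKM in diabetic and 17.2, 15.7 and 13.3 FPKM in non-diabetic rats, with a log2 fold change of -0.39 and an adjusted p of 0.5 in limma, while the other 4 overlapped between the groups. LOC102549061, a histone H2B relative, had 12.3, 12.3 and 14.2 against 15.8, 14.9 and 17.0 FPKM. LOC680322 (H2ac12), an H2A gene, was the one higher, with 3.03, 1.84 and 3.70 against 1.0, 1.76 and 1.71 FPKM. None reached a log2 fold change of 1.

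Zinc finger genes had 54 of 66 rows tested, with a median log2 fold change of -0.03, or -0.0049 after scaling by median ratios. LOC103690038, named only as a zinc finger protein, had 4.16, 3.95 and 4.43 FPKM in diabetic and 2.70, 2.89 and 3.21 FPKM in non-diabetic rats, a log2 fold change of 0.50 ± 0.12 (SE) with an adjusted p of 0.41 in limma. LOC102554315 (Zfp120) went the other way, with 1.64, 1.99 and 1.65 against 2.53, 2.44 and 2.70 FPKM. The groups were apart in both genes, in opposite directions.

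Among genes of metabolism, LOC100911186, similar to mitochondrial enoyl-CoA hydratase, an enzyme of fatty acid oxidation, had 1.66, 1.29 and 1.58 FPKM in diabetic and 2.57, 3.43 and 3.05 FPKM in non-diabetic rats. The log2 fold change was -0.95 ± 0.17 (SE), just short of the criterion, with an adjusted p of 0.271 in limma. The named gene Echs1 had 1.71, 1.3 and 1.59 against 2.57, 3.45 and 3.08 FPKM, close to LOC100911186 in every rat. Whether the rows of LOC100911186 and Echs1 share reads was not tested. The mitochondrial family as a whole had 15 tested rows with a log2 fold change above 0 and 15 below. LOC100361934 (Ndufb4l4), a copy of a subunit gene of respiratory complex I, had 25.6, 26.7 and 28.6 against 28.2, 33.7 and 32.9 FPKM.

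LOC683422 (Prss52), a serine protease gene, had 32.6, 33.7 and 33.9 FPKM in diabetic and 38.4, 43.7 and 45.6 FPKM in non-diabetic rats, with a log2 fold change of -0.35 ± 0.08 (SE) and an adjusted p of 0.354 in limma. All 5 tested heat shock rows had log2 fold changes below 0, as had 11313 of all 20338 genes tested. Their median was -0.10, against -0.02 over all genes tested. Of the 5, 1 had an unadjusted p below 0.05 in limma, against 7.46% of all genes. The family was collected by words in the description, and RefSeq names LOC680121 of this family Haus8l2. LOC688655, which RefSeq calls a pseudogene of Hspa8, had 7.90, 7.63 and 8.50 against 8.98, 11 and 9.12 FPKM. LOC690235 (Smokl5), a kinase relative, had 6.32, 5.0 and 6.45 against 7.29, 7.09 and 8.61 FPKM. In these 3 genes the groups did not overlap.

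The genes with the lowest p-values in 2 other families did not pass the test. LOC689396 (Ell2l1), an elongation factor relative, had 9.61, 10.1 and 11 against 8.76, 9.32 and 9.30 FPKM. LOC103694506, a ubiquitin-conjugating enzyme, had 2.70, 3.38 and 3.47 against 3.50, 3.46 and 4.39 FPKM. The spermatogenesis family had 15 of 21 rows tested, and its 3 rows past the criterion were the rows of LOC501467 and LOC685226 described above. This family was collected by words in the description and also took in LOC100912604, a spermidine synthase relative that is no sperm gene by that name.

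Of the 13 rows described as pseudogenes 5 were tested, and none had an unadjusted p below 0.05. LOC103691939, described as a pseudogene of elongation factor 1-alpha 1 and named Eef1a1l2 in RefSeq, was the highest, with 72.2, 73.6 and 107 FPKM in diabetic and 68.8, 114 and 98.9 FPKM in non-diabetic rats. LOC108350502 (Rps2-ps43) had 7.28, 7.63 and 6.61 against 7.65, 8.12 and 7.81 FPKM. By RefSeq, 80 tested rows were pseudogenes or transcribed pseudogenes. Of these 80, 2 had an unadjusted p below 0.05 in limma as higher and 1 as lower, against 7.46% of all genes. RGD1359290 and LOC688655, described above, were among them. Reads of the abundant parent genes cannot be told apart from these copies here.

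Long non-coding RNAs by RefSeq were tested in 76 of 104 rows, and 5 had an unadjusted p below 0.05 as higher and 6 as lower in diabetic rats, against 502 and 1015 of all 20338 genes. The 2 past the criterion were LOC102552398 and LOC108348752, both lower. The most abundant, LOC102555525, had 168, 157 and 142 FPKM in diabetic and 153, 164 and 153 FPKM in non-diabetic rats, and the groups overlapped. The median over the tested lncRNA rows was 2.72 FPKM, against 9.98 FPKM over the tested protein-coding rows.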

How the data were processed

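Testicular RNA of 3 diabetic and 3 non-diabetic rats was sequenced on an Illumina instrument in paired ends. The authors checked reads with FastQC, compared them with ribosomal RNA sequences by BWA, aligned with STAR and assembled transcripts with StringTie. Versions, genome build and strand handling are not given in the sources used here. The deposited gene table holds FPKM values made by the authors, and no raw counts were used here, so the study's count-based test was replaced. The provisional genes and gene lists were chosen with earlier results of these data known.

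Genes averaging 0.5 FPKM or more over the rats were compared as log2(FPKM + 0.1) with limma 3.58.1 in R 4.3.3 (moderated statistics with a mean trend), and p-values were adjusted by Benjamini-Hochberg over all 20338 genes tested. Single genes were also compared by the exact two-sided permutation test (scipy 1.17.1), whose smallest p is 0.1. The fit was tested on simulated data. Descriptions were sorted into classes by fixed words, the first match deciding, and into families by key words. Promoter windows were aligned with Biopython 1.88.

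The genes named were those with an adjusted p below 0.05, those past the criterion without overlap of the groups and averaging 1 FPKM or more in the higher one, on-off genes, the 10 highest means, the lowest p-value of each family with at least 5 members tested, and up to 5 genes of 10 FPKM or more whose log2 fold change was 0.5 or more in either direction. The other genes past the criterion, the Speer relatives, the genes listed at 0, other genes with an immune description, LOC102549061, LOC680322, LOC102554315, LOC100362027, the pseudogenes and LOC102555525 were chosen after their values were seen. The Benjamini-Hochberg adjusted values of LOC102552398 and all others refer to all genes tested. Alternatives were another constant, other filters, scaling to TPM or by median ratios, no mean trend, a replicate block and leaving out each rat. The deviations of same-numbered rats had correlations of 0.106, 0.0153 and 0.0979, all of them positive.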

Additional observations from a re-analysis of the deposited data

How the results depend on the processing

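The counts of provisional genes past the criterion, 7 higher and 10 lower in diabetic rats, moved with the treatment of low values. With 1 FPKM added before the logarithm, 3 passed as lower, and with a filter of at least 1 FPKM, 5. Without a filter 18 passed as higher and 25 as lower. Leaving out genes listed at 0 in any rat, an alternative chosen after seeing the data, gave 6 lower. With 0.01 FPKM added, 0 provisional genes had an adjusted p below 0.05 in limma (89 at an unadjusted p below 0.05). The on-off count was 0 when off meant below 0.05 FPKM or exactly 0, since LOC102552398 had 0.0656 FPKM in diabetic rat 3.

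Leaving out 1 rat at a time gave 2 to 12 higher, 5 to 12 lower, 0 to 3 with an adjusted p below 0.05 and 1 to 3 on-off genes. On-off genes were then also LOC108348091 and LOC108352225 without diabetic rat 1, LOC103689931 without diabetic rat 3, LOC103689945 without non-diabetic rat 1 and LOC297756 without non-diabetic rat 3. With the replicate number as a block, 8 passed as higher, 8 as lower and 1 after adjustment, and 117 had an unadjusted p below 0.05 in limma. The labels do not say whether the numbers mark pairs.

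Among the named genes, the log2 fold change of LOC500124 was 0.0134 with median-ratio scaling and -0.065 to 0.0563 without single rats. That of LOC300308 was -0.0028 to 0.271 and that of RGD1564319 -0.0739 to 0.122 without single rats. In all, 69 of the alternative values for named genes no longer had an unadjusted p below 0.05, and 486 kept direction and side of that threshold. The cause of these shifts was not tested. The number of reads behind each FPKM is unknown, which limits what can be said of genes near 1 FPKM.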
